A study of Mus musculus with 6 samples.

Results

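Chromatin accessibility was examined at 10 genes of the p53 response, namely Cdkn1a, Mdm2, Bbc3, Bax, Ccng1, Phlda3, Trp53inp1, Zmat3, Sesn2 and Trp53 itself, in control and MMF-treated murine MLL-AF9 leukemia cells. For each gene, every ATAC-seq peak overlapping the gene body or the 15 kb on either side of it (mm10, GENCODE M21) was taken from the 6 deposited peak lists. These windows held 356 of the 438111 peaks of the 6 lists, and the 356 peaks merged into 74 of the 112852 regions of the series. The labels describe all 6 samples as L-GMP cells, AML leukemia stem cells (LSCs) of genotype WT from blood, grown in RPMI1640 with 20% FBS and 10 ng/ml mouse IL3, sorted, and tagmented with Tn5 for 30 min. The 3 MMF samples had been treated with mycophenolate mofetil for 24 h according to the labels, and the 3 control samples carry the label Control. Some legends of the study give a shorter treatment, so the duration is not settled. In this model hematopoietic stem and progenitor cells are transduced with a retrovirus carrying MLL-AF9 and transplanted, so control and MMF cells alike carried the fusion oncogene in addition to their WT genotype.

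p53, the product of Trp53, is a transcription factor that accumulates when DNA is damaged or ribosome assembly is disturbed, binds a response element made of paired decamers, and turns on genes for cell-cycle arrest, cell death and repair. Mdm2 is both its target and its inhibitor, since the Mdm2 protein marks p53 for degradation. MMF blocks inosine monophosphate dehydrogenase and thereby the synthesis of guanine nucleotides, which cells need for ribosomal RNA and DNA, and lack of guanine nucleotides is a textbook trigger of p53. ATAC-seq reads out where the Tn5 transposase can reach DNA, so it describes open chromatin at these genes and not their RNA or the binding of p53.

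The p53 response element was searched in the sequence around each peak and across the whole windows. The genes were chosen as p53 targets, together with Trp53 itself. A share of sites above that of all regions therefore partly follows from that choice and is no independent result. A site was 2 decamers of 10 bp each with no spacer, with both core tetramers matched and at most 2 mismatches elsewhere. Looser matches, with a mismatch in a core tetramer or more mismatches elsewhere, were not counted, so a region without a site can still hold one. The 5 sites that follow carry the account of Cdkn1a, Mdm2, Zmat3 and Ccng1, and are written 5′ to 3′ on the plus strand of GRCm38 with the core tetramers in capitals.
Cdkn1a, upstream, chr17:29079039-29079058: aggCAAGcccgggCAAGgcc
Cdkn1a, first start, chr17:29090928-29090947: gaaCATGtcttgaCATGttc
Mdm2, upstream, chr10:117717736-117717755: ggaCATGtttgtaCATGttt
Zmat3, intron, chr3:32364331-32364350: agaCATGcctgggCTTGttt
Ccng1, promoter, chr11:40754936-40754955: agaCTAGcccgggCTTGcgt
The Zmat3 site matched with 0 mismatches and each of the others with 1.

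The 300 bp around the summit are shown for the 3 member regions that held such a site and for the region in Sesn2 with the smallest adjusted p of all member regions, with the p53 site in capitals where there was one. All are plus-strand sequence of GRCm38.
Mdm2, upstream, chr10:117717558-117717857: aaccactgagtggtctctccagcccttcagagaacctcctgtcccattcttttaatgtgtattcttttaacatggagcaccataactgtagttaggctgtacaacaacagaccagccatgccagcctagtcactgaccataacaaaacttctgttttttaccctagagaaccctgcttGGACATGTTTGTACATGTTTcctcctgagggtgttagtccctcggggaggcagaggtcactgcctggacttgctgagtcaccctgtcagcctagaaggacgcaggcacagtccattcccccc
Zmat3, intron, chr3:32364168-32364467: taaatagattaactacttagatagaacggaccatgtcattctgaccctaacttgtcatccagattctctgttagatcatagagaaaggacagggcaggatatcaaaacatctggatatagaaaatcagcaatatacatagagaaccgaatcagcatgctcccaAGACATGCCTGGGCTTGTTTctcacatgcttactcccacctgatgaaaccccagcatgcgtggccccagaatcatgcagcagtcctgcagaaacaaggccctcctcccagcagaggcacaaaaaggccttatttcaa
Cdkn1a, upstream, chr17:29078909-29079208: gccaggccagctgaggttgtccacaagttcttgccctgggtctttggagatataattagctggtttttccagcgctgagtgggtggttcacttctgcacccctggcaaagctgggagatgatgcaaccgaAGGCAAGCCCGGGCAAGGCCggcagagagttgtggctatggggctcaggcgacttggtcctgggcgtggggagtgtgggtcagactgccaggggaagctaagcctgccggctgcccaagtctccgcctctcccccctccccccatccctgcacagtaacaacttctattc
Sesn2, intron, chr4:132494602-132494901: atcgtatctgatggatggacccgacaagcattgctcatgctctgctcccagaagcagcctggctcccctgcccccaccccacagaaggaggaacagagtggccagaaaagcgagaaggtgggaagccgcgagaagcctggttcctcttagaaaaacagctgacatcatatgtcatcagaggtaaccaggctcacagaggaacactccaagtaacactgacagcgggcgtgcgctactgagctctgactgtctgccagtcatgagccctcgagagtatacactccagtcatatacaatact
The Sesn2 sequence held no p53 site by this definition.

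The lists differed in length before any gene was considered. The control lists held between 58496 and 63911 peaks and the MMF lists between 80893 and 86556, a mean of 61499 ± 2755 (SD, n = 3) against 84538 ± 3163 (SD, n = 3), or 1.37 times as many (two-sided exact permutation p = 0.1, which is the floor for 3 against 3 samples). Peak strength is given below as a height, the reads over the summit divided by the reads that the genome-wide background of the sample would place there, so a height of 20 is 20 times that background. It does not depend on the length of a gene or peak. Reads and background were solved from the deposited fold enrichment and p, and member summits held between 5 and 124 reads, so the weakest peaks rest on few reads. Peaks were present at the promoters of Spi1, Cebpa and Kit in all lists, but of 14 myeloid and progenitor markers only 7 had a promoter peak in all 6 lists, and Mpo and Prtn3 had one in no list. The T cell markers had no promoter peak in any list, and Pax5, Gata1 and Alb had none either, while Ebf1, Klf1, Col1a1 and Pecam1 had one in all 6. The median promoter rank of the myeloid list, on a percentile scale within each sample, moved from 19.0 in control to 39.0 with MMF, and the part of this shift in the results below was not tested. In such bulk samples fewer cells of a type cannot be told apart from less accessibility per cell.

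At the 10 genes, more peaks were called with MMF than in control, to about the extent seen over the genome. The windows held 54, 56 and 50 peaks in the control lists and 70, 67 and 59 in the MMF lists. The highest control list lay below the lowest MMF list. The means were 53.3 ± 3.06 (SD, n = 3) and 65.3 ± 5.69 (SD, n = 3), a ratio of 1.23 (exact permutation test, two-sided, p = 0.1), against the ratio of 1.37 over all peaks. With every list shortened to its 58496 strongest peaks the difference in the windows was 3 peaks (exact permutation p = 0.4).

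Of the 74 member regions, 41 had a peak in all 6 lists, 7 were gained with MMF, meaning a peak in all 3 MMF lists and in no control list, and 0 were lost. Over the series 6.0% of regions were gained and 0.182% were lost. The 7 of 74 gained at the 10 genes lay above that share, on few regions, and the difference was not tested. The gained regions lay at Mdm2, with 3, Phlda3, with 2, and Cdkn1a and Bbc3, with 1 each. The other 26 regions had a mixed pattern: 16 had more MMF than control lists, 6 had more control than MMF lists and 4 had as many of each, and 8 rested on 1 MMF list and 2 on 1 control list. Gained regions were mostly away from promoters, as 6 of the 52 member regions that touched no coding promoter (11.5%) and 1 of the 22 that did (4.55%) were gained, where the series had 6.75% and 1.67%. With lists of equal length 3 of the member regions were gained.

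**Figure D1:**
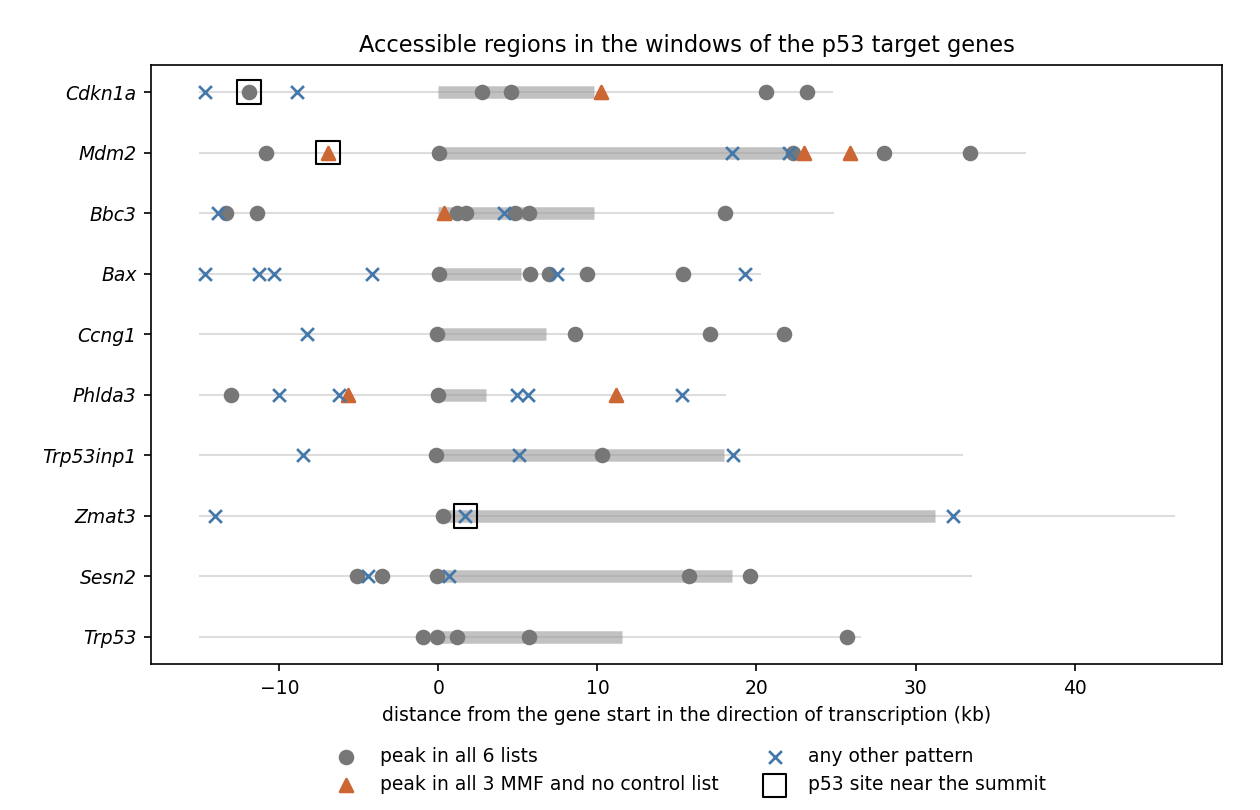
Regions with a peak in the windows of the 10 p53 genes, placed by their distance in kb from the gene start along the direction of transcription (horizontal axis), with 1 row per gene, a grey bar for the gene body, a marker showing whether the region was in all 6 lists, gained with MMF or mixed, and a square around the 3 regions with a p53 site. The regions in all 6 lists lie at and around the genes, with none at the first start of Cdkn1a, and the 7 gained regions lie at Mdm2, Phlda3, Cdkn1a and Bbc3.

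The promoters of the 10 genes were already open in control cells and stayed open with MMF. A promoter peak was called in each of the 6 lists for each of the 10. Averaged over the 6 samples the mean heights ran from Ccng1 (127), Sesn2 (122), Trp53 (118) and Mdm2 (106) through Trp53inp1 (82.2), Bbc3 (79.4), Cdkn1a (76.2) and Bax (66.0) to Phlda3 (33.6) and Zmat3 (30.4). Neighbours in this order overlapped in their samples, apart from Bax and Phlda3. The mean promoter height was higher with MMF in 4 of the 10 genes (1 with heights centred on the median of each sample), and the median difference was −0.05 on the log2 scale against −0.09 over all genes with a promoter peak in all lists. Control and MMF heights did not overlap in 2 genes that were higher and 1 that was lower with MMF, where 8.37% of all genes were separated upwards and 17.3% downwards. By percentile rank, 6 of the 10 had a higher mean with MMF (0 with lists of equal length), and 0 were separated upwards and 1 downwards against 11% and 7.37% of all genes. The gene that was lower by both measures was Cdkn1a, whose value in control 1 came from a neighbouring peak. At Bbc3 the highest promoter peak also lay in a different region with MMF than in control, so its heights compare different peaks. No exact permutation test of a single promoter can go below p = 0.1 here.

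**Figure D2:**
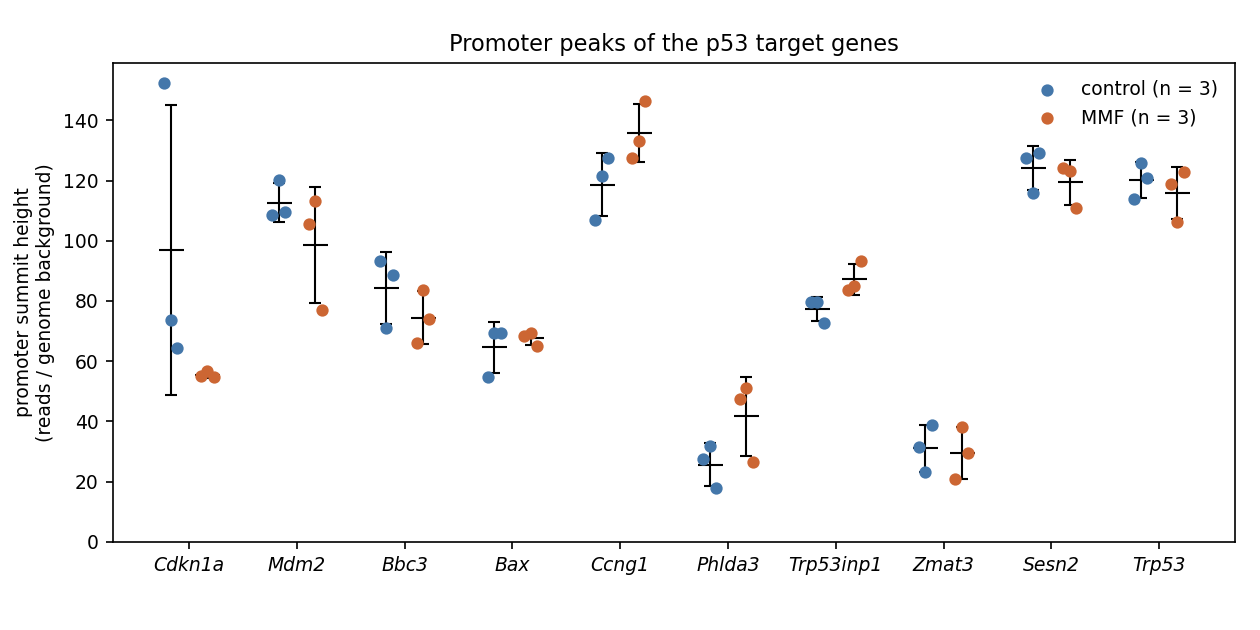
Height of the promoter peak of each gene (vertical axis, summit reads over the genome-wide background) in the 3 control and 3 MMF samples, with 1 point per sample and black bars for the group mean and SD. Phlda3 and Zmat3 are the lowest, Ccng1 and Trp53inp1 show MMF points above all control points, and the raised control point of Cdkn1a belongs to its broad intronic peak.

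Among the 41 member regions with a peak in all lists, the difference in height between MMF and control had a median of 0.07 on the log2 scale, against 0.17 over all 41182 such regions, and 21 of the 41 were higher with MMF. Linear models over all 41182 regions (limma, Benjamini-Hochberg adjusted p under 0.05) called 4 member regions higher and 1 lower, where 18.6% of all regions were called higher and 0.969% lower. The 4 that rose were 1 intronic region of Sesn2 and 3 regions beyond the end of Mdm2, and the 1 that fell was the Atp1b2 promoter in the window of Trp53. Heights of the groups did not overlap in 11 regions upwards and 5 downwards, or 26.8% and 12.2% of the 41, against 29.1% and 7.67% of all regions. On ranks within a list, limma called 0 member regions higher and 0 lower (3 had an unadjusted p under 0.05), where 5.82% of all regions were called higher and 0.182% lower. The members' shares of calls upwards by either measure were below those of the series. Coding promoters made up 19 of the 41 regions, against 11556 of 41182 in the series. Over the series 3.25% of coding promoter regions were called higher on height, against 24.5% of the others. The median difference at coding promoters was −0.0551 for members against −0.0904 for the series, and 0.234 against 0.317 elsewhere. The part of this mix in the lower share was not tested. The split between calls upwards and downwards depended on the scale. With heights centred on the median of each sample 0 member regions were called higher and 7 lower. The series turned from 7646 regions higher and 399 lower to 2841 higher and 5706 lower. That centring moved the median of all regions from 0.17 to −0.19, and the median of the members from 0.07 to −0.28. The 7 regions in all lists that are not described by gene in what follows had log2 differences between −0.22 and 0.38, and the 26 mixed regions had heights between 7.08 and 66.5.

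**Figure D3:**
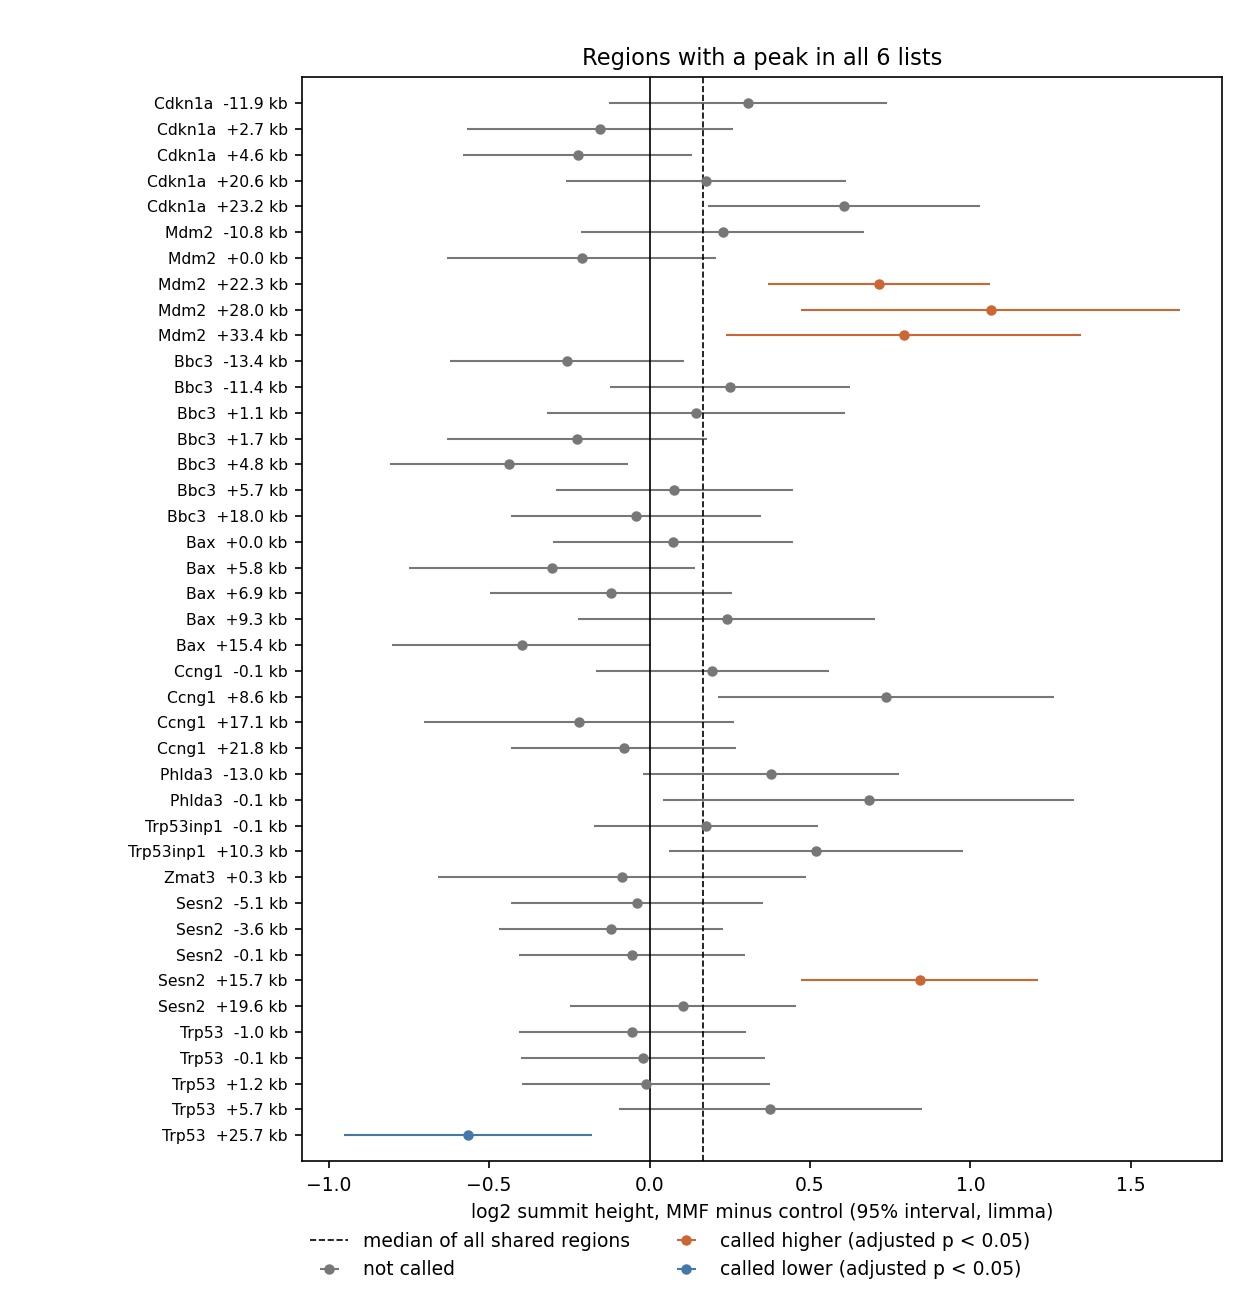
Difference in log2 height, MMF minus control, for the 41 member regions with a peak in all 6 lists (horizontal axis, with 95% intervals from limma), 1 row per region grouped by gene and coloured where the adjusted p was under 0.05. The 4 regions called higher lie at Mdm2 and Sesn2, the 1 called lower lies in the Trp53 window, and the dashed line is the median of all 41182 regions at 0.17.

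Mdm2, the E3 ubiquitin ligase that holds p53 down, occupies chr10:117688875-117710758 on the minus strand and had the most gained regions. Its lists held 5, 6 and 5 peaks in control and 9, 9 and 8 with MMF. Its own promoter (chr10:117709963-117711015) had heights of 108, 120.0 and 109.6 in control and 106, 113 and 76.9 with MMF. These groups overlapped (exact permutation test, two-sided, p = 0.4).

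Past the 3′ end of Mdm2, toward and into the neighbouring gene Cpm, 5 regions between 22.3 and 33.4 kb from the Mdm2 start were either called higher or gained with MMF. The region just past the end of the gene (chr10:117688202-117688550) had heights of 23.3, 24.6 and 24.2 in control and 41.8, 36.8 and 39.9 with MMF, a 1.64-fold rise (log2 difference 0.72, SE 0.16, limma adjusted p = 0.0114). It was called without any 1 of the 6 libraries, but its deposited fold enrichment over the local background did not differ (log2 difference 0.00, limma adjusted p = 0.990). In an intron of Cpm 28.0 kb from the Mdm2 start, chr10:117682437-117682839 had 27.4, 15.9 and 12.9 in control and 33.0, 43.9 and 35.5 with MMF, the largest log2 difference among the members (1.06, SE 0.27, limma adjusted p = 0.0203). Each MMF sample was above each control sample there. That call was lost without control 2 (limma adjusted p = 0.0585), without control 3 (0.0586) or without MMF 2 (0.0766). The farthest region, chr10:117677062-117677748, also in an intron of Cpm, had 27.4, 23.1 and 22.6 in control and 62.7, 38.2 and 31.0 with MMF (log2 difference 0.79, SE 0.25, limma adjusted p = 0.0492). It rested on all but one of the libraries, since the adjusted p was between 0.0679 and 0.141 without any one of control 1, 2 and 3 and MMF 1 and 2, and 0.0273 without MMF 3, and the difference was 0.50 without MMF 1. With median centring none of these 3 was called (limma adjusted p = 0.112 for the first, 0.0781 for the second and 0.212 for the farthest). The sequence around the summit of the farthest region is in large part a tandem repeat, and how uniquely reads map there was not tested.

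Between them were the gained regions chr10:117687621-117688053, with MMF heights of 25.3, 21.2 and 25.1, and chr10:117684739-117685007 in an exon of Cpm, with 33.0, 25.5 and 28.1. The third gained region of Mdm2 lay on the other side, 7.0 kb before the start (chr10:117717581-117717918), and held the p53 site printed above. Its MMF peaks had heights of 19.8, 32.6 and 37.0 on 18, 23 and 25 summit reads, and no control list had a peak. Of the 7 gained member regions it was the one that held a p53 site. A region farther up (chr10:117721457-117721868) had a peak in all lists, from 41.9 to 50.8 in control and from 41.4 to 62.3 with MMF, and was not called.

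**Figure D4:**
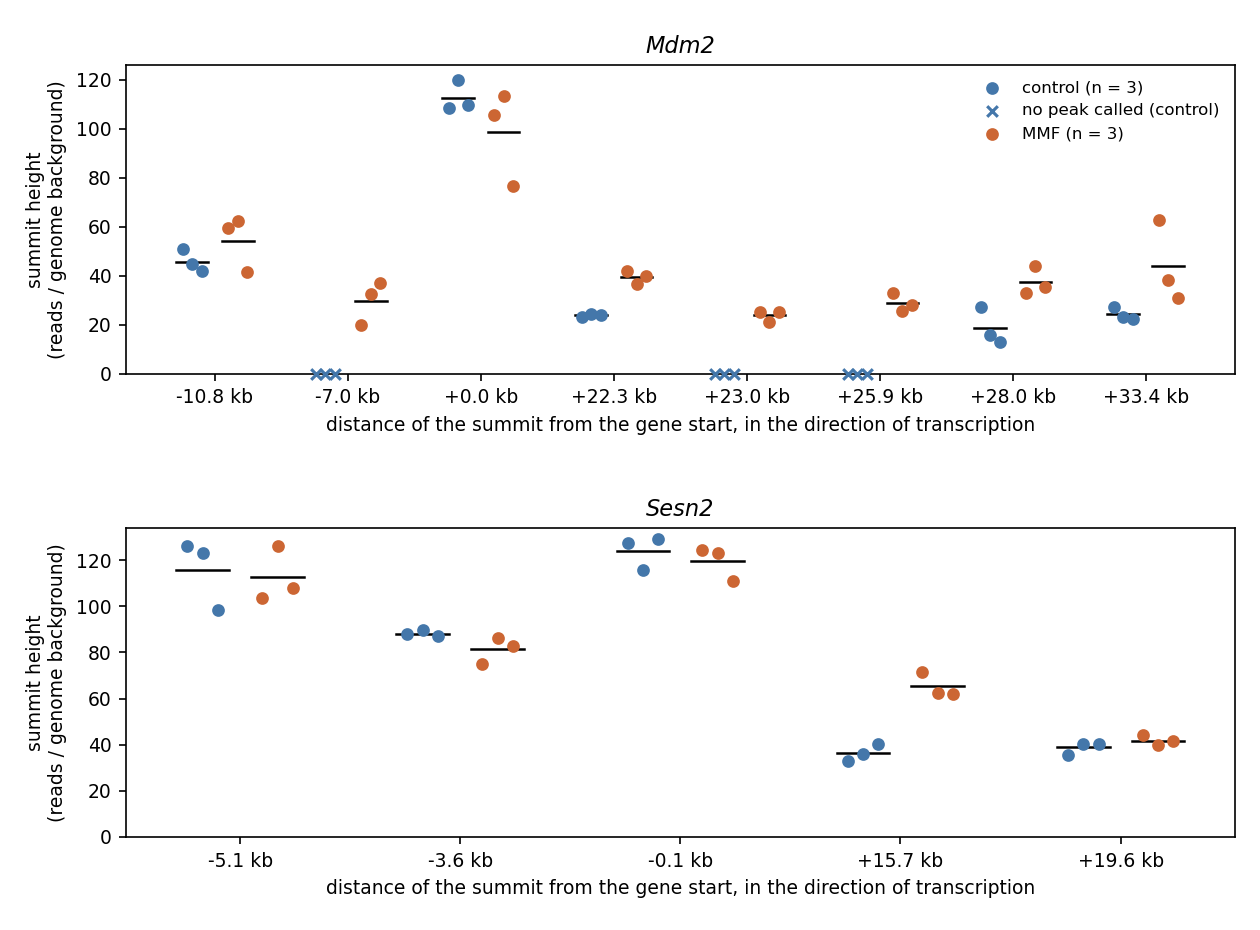
Heights of the peaks (vertical axis, summit reads over the genome-wide background) in each control and MMF sample at the regions of Mdm2 and Sesn2 that were gained or in all 6 lists, ordered by distance in kb from the gene start, with a line at the mean of a group and a cross at 0 where no peak was called. The 5 regions past the Mdm2 end and the Sesn2 intronic region have all MMF points above the control points or no control peak, while both promoters overlap.

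Sesn2 encodes a stress-induced protein that restrains mTORC1 signalling, and lies at chr4:132492032-132510501 on the minus strand. An intronic region 15.7 kb past its start (chr4:132494366-132495056) had heights of 32.9, 36.2 and 40.3 in control and 71.5, 62.3 and 62.1 with MMF. All MMF samples were far above all control samples, with means of 36.5 ± 3.70 (SD, n = 3) and 65.3 ± 5.36 (SD, n = 3). The rise was 1.79-fold (log2 difference 0.84, SE 0.17, 95% interval 0.47 to 1.21), with the smallest adjusted p of the member regions (limma adjusted p = 0.00739). It was called without any 1 library (limma adjusted p from 0.0123 to 0.0322) and on fold enrichment over the local background (0.0177), but on ranks and with median centring it fell just short (0.0514 and 0.0585). The other Sesn2 regions moved little. Its promoter had 128, 116 and 129 in control and 124, 123 and 111 with MMF, which overlapped. The regions 3.6 and 5.1 kb before the start and 19.6 kb past it had log2 differences between −0.12 and 0.10, none called. A region 4.4 kb before the start had peaks in every list but that of MMF 3.

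Cdkn1a encodes the cyclin-dependent kinase inhibitor p21, the classical mediator of p53-driven arrest, and lies at chr17:29090976-29100727 on the plus strand. No list had a peak over its first annotated start, and the p53 site printed above lies just before that start. The open chromatin sat over a second annotated start, with a summit 2.7 kb past the first, and in the intron after it. Which start these cells use was not examined, so the lack of a peak at the first does not mean a closed Cdkn1a promoter. The peak over the second start (chr17:29093545-29093882) had heights of 49.4, 73.8 and 64.5 in control and 55.0, 56.7 and 54.7 with MMF, so that the groups overlapped (limma adjusted p = 0.615). The broad intronic peak beside it (chr17:29094436-29095949) had 152, 140.3 and 139 in control and 112, 125 and 133 with MMF, with all MMF samples lower but no call (log2 difference −0.22, SE 0.16, limma adjusted p = 0.374). With median centring it was called lower (−0.58, limma adjusted p = 0.0351). The apparent fall of the Cdkn1a promoter in the promoter plot, −0.70 on the log2 scale, owes much of its size to control 1, where the broad peak reached into the promoter window. It was −0.32 without control 1, with the other control samples still above all MMF samples, −0.15 with promoters of 500 bp on either side and −0.22 with wider promoters.

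The upstream p53 site of Cdkn1a lay 11.9 kb before the start in chr17:29078827-29079475, over the promoter of the noncoding gene Trp53cor1, itself known as a p53 target. This region was open in every list, at 63.1, 79.5 and 62.9 in control and 81.4, 70.8 and 103 with MMF, and was not called (log2 difference 0.31, SE 0.19, limma adjusted p = 0.315). The gained region of Cdkn1a was just past its 3′ end (chr17:29100906-29101331), with MMF heights of 22.0, 19.8 and 22.2. By fold enrichment over the local background it ranked low, at percentiles of 10.8, 4.29 and 4.92 of the MMF lists. The sequence around its summit is in large part a tandem repeat, and how uniquely reads map there was not tested. At the far edge of the window the promoter of Rab44 (chr17:29113754-29114309) had 70.0, 59.3 and 51.6 in control and 75.9, 103 and 96.1 with MMF, without overlap and just over the threshold (log2 difference 0.61, SE 0.19, limma adjusted p = 0.0503).

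Ccng1 encodes cyclin G1, a regulator of Mdm2, and had the tallest promoter of the 10 genes (chr11:40754714-40755767; gene at chr11:40748552-40755311, minus strand). Its heights were 107, 121 and 127 in control and 128, 133 and 146 with MMF. All MMF samples were above the control samples, by 0.20 on the log2 scale (exact permutation p = 0.1, limma adjusted p = 0.449), a difference that was −0.16 with median centring. The p53 site printed above lay inside this region but outside the 300 bp at its summit. Those 300 bp held a looser match with a mismatch in a core tetramer, which the definition did not count. A region 8.6 kb past the start, beyond the end of the gene (chr11:40746446-40746915), had 26.1, 28.9 and 16.1 in control and 40.7, 42.5 and 32.5 with MMF, without overlap and just short of a call (log2 difference 0.74, SE 0.24, limma adjusted p = 0.0524).

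Bbc3 and Bax encode proteins of mitochondrial apoptosis, the BH3-only activator PUMA and the pore-forming effector. At Bbc3 (chr7:16308393-16318205, plus strand) a region 0.3 kb past the start (chr7:16308512-16309028) was gained with MMF. Its heights over the genome-wide background were above those of the other gained regions, but by fold enrichment over the local background it ranked low, at percentiles of 11.5, 11.9 and 6.17 of its lists. Its MMF heights were 66.0, 68.0 and 60.6 on 60, 48 and 41 summit reads, and no control list had a peak there. A promoter peak 1.1 kb past the gene start, with its summit 77 bp before the promoter start, stood next to it in all lists. That neighbouring peak (chr7:16309189-16309700) had heights of 70.0, 53.5 and 64.5 in control and 52.8, 83.6 and 73.9 with MMF, with overlap. The sequence around its summit held a looser p53 match with too many mismatches for the definition used. An intronic region 4.8 kb past the start (chr7:16312747-16313382) went the other way, from 113, 139 and 116 in control to 88.0, 85.0 and 97.6 with MMF, without overlap and without a call (log2 difference −0.44, SE 0.17, limma adjusted p = 0.0958). With median centring it was called lower (−0.79, limma adjusted p = 0.0193), as were the regions 13.4 kb before the start (0.0332) and 1.7 kb past it (0.0460). The regions 13.4 and 11.4 kb before the start were in all lists and not called, with log2 differences of −0.26 and 0.25. So within one gene a region near the start was gained and one farther in was lower in all MMF samples.

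The Bax window (chr7:45461697-45466898, minus strand) had 11 regions, more than any other, and 0 gained. Its promoter had heights of 54.9, 69.4 and 69.3 in control and 68.2, 69.4 and 65.0 with MMF, which overlapped. In an intron of the neighbour Gys1, chr7:45451182-45451651 had 53.5, 75.2 and 69.3 in control and 46.2, 52.4 and 50.3 with MMF, lower without overlap and not called (log2 difference −0.40, SE 0.18, limma adjusted p = 0.157). The regions at the promoter of Ftl1, the ferritin light chain, had log2 differences of −0.12 and −0.30 where they were in all lists, and neither was called. With median centring the second of these (−0.66, limma adjusted p = 0.0432) and the Gys1 region (−0.75, limma adjusted p = 0.0249) were called lower.

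Phlda3, whose product competes with Akt for membrane lipids, lies at chr1:135766119-135769136 on the plus strand and went from 2, 4 and 3 peaks in control to 7, 7 and 6 with MMF. Both of its gained regions were weak. The one 5.7 kb before the start (chr1:135760298-135760552) had MMF heights of 8.80, 11.3 and 14.8 on 8, 8 and 10 summit reads, and the one 11.2 kb past it (chr1:135777094-135777454) had 16.5, 12.7 and 11.8. The Phlda3 promoter had heights of 27.4, 31.8 and 17.7 in control and 47.3, 51.0 and 26.6 with MMF. MMF 3 lay within the control samples, and the difference of 0.68 on the log2 scale, large among the 10 promoters, was not called (SE 0.29, limma adjusted p = 0.128). The region 13.0 kb before the start (chr1:135752817-135753327) had 43.9, 41.9 and 40.3 in control and 47.3, 66.6 and 51.7 with MMF, without overlap and without a call (log2 difference 0.38, SE 0.18, limma adjusted p = 0.175).

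Trp53inp1, an adaptor that promotes p53 activity and autophagy, had a promoter height of 79.6, 79.5 and 72.6 in control and 83.6, 85.0 and 93.1 with MMF (gene at chr4:11156431-11174379, plus strand). The samples did not overlap, by a small difference of 0.18 on the log2 scale (exact permutation p = 0.1, limma adjusted p = 0.484) that was −0.18 with median centring. Its intronic region 5.1 kb in (chr4:11161336-11161639) had peaks of 14.5 in control 2 and 21.0 in control 3 and of 29.7, 28.3 and 28.1 with MMF. The region 10.3 kb in (chr4:11166607-11166821) was in all lists, at 15.1, 11.6 and 17.7 in control and 24.2, 21.2 and 17.7 with MMF, and was not called (log2 difference 0.52, SE 0.21, limma adjusted p = 0.108).

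Zmat3, a zinc finger protein that binds RNA, had the lowest promoter of the 10 genes, at 31.6, 23.1 and 38.7 in control and 20.9, 38.2 and 29.6 with MMF (gene at chr3:32334792-32366014, minus strand). The groups overlapped widely. The mismatch-free p53 site lay 1.7 kb past the start in an intronic region (chr3:32364226-32364452) with peaks of 14.3 in MMF 1 and 19.8 in MMF 2 and in no other list, so it was not among the gained regions.

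Trp53 itself (chr11:69580359-69591873, plus strand) had 5 regions, all in every list and 3 of them at its start, which it shares with Wrap53. The promoter peak had heights of 114, 126 and 121 in control and 119, 106 and 123 with MMF, and its 3 promoter regions had log2 differences of −0.05, −0.02 and −0.01. None was called. The region that fell lies at the other end of the window, at the promoter of Atp1b2 (chr11:69605461-69606356), with 35.7, 39.0 and 46.8 in control and 29.7, 26.9 and 25.1 with MMF, 0.676 of control (log2 difference −0.57, SE 0.17, limma adjusted p = 0.0452). Each MMF sample was below each control sample, but the call was lost without any 1 of the 6 libraries, controls and MMF alike (limma adjusted p from 0.0516 to 0.131), and on fold enrichment over the local background (−0.25, 0.395). With median centring it was called (−0.92, limma adjusted p = 0.0151).

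A p53 site was present in the 300 bp centred on the summit in 3 of the 74 member regions (4.05%), against 0.228% of all regions, 0.443% of gained regions and 0.141% of regions in all lists. Since the genes were chosen as p53 genes, a share above that of all regions partly follows from that choice. The 3 regions were those of Cdkn1a, Mdm2 and Zmat3 shown above, one open in all lists, one gained and one in 2 MMF lists, so these 3 sites shared no single pattern of accessibility. Looser matches, such as those at the Ccng1 and Bbc3 promoters, were not counted, so these shares do not show that the other regions lack sites. Across the whole windows 12 sites were found in 435586 bp, of which 5 lay inside regions. Among RefSeq promoters (GRCm38, 250 bp before to 50 bp after a start) 52 of 32851 held a site, or 0.158%. For 8 of the members 11 such promoters were matched, and 1 of these, the first start of Cdkn1a, held a site by this definition, at which no sample had a peak. Motifs of blood transcription factors, searched on both strands and added after the member values had been seen, were present at about the share of all regions, for AP-1, or below it. AP-1 (TGANTCA) was found in 15 of the 74 member windows of 300 bp (20.3%) against 18.7% of all regions, PU.1 (GAGGAAGT) in 2 (2.70%) against 9.10%, RUNX (TGTGGT) in 18 (24.3%) against 32.0% and C/EBP (TTGCNNAA) in 10 (13.5%) against 18.9%.

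The rest of the p53 pathway was read at promoters. Of 28 other p53 target genes, 26 had a promoter region in all 6 lists, and the region with the highest mean rank by fold enrichment was higher with MMF in 10 and lower in 16. Over all genes with a promoter peak in every list the promoter was higher in 5348 of 15277, and 3.25% of coding promoter regions were called higher and 1.19% lower, so these counts were near the background. None was called higher or lower by limma on heights or on ranks (3 and 2 had an unadjusted p under 0.05). Btg2, an antiproliferative factor, had the highest difference (0.32 on the log2 scale, SE 0.15, limma adjusted p = 0.189), followed by Psrc1, a spindle protein (0.26, SE 0.21, limma adjusted p = 0.433). The lowest were Apaf1, the core of the apoptosome (−0.46, SE 0.20, limma adjusted p = 0.136), and Ddb2, a DNA damage sensor (−0.39, SE 0.17, limma adjusted p = 0.147). Of the other 2 targets, Eda2r had no promoter region and Zfp365 had none in all 6 lists.

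Of 10 regulators of p53, 3 were higher and 7 lower with MMF, again near the share over all promoters in direction. A promoter region of 2 of them passed a test, where 3.25% of all coding promoter regions were called higher and 1.19% lower on height. Cdkn2a had 2 promoter regions in all lists, and so more than 1 chance to pass. The promoter of Rpl11, a ribosomal protein that binds and blocks Mdm2 when ribosome assembly fails, fell from 143, 162 and 166 in control to 89.1, 112 and 97.6 with MMF (chr4:136053008-136053807). It passed both on height (log2 difference −0.66, SE 0.17, limma adjusted p = 0.0221) and on rank (limma adjusted p = 0.0435), though the height call was lost without control 2, control 3, MMF 1 or MMF 3 (limma adjusted p from 0.0576 to 0.0807), the rank call without any 1 library, and the call on fold enrichment over the local background was not made (limma adjusted p = 0.108). With median centring the Rpl11 promoter was called lower (−1.01, limma adjusted p = 0.0107), and with quantile normalization it fell just short (0.0536). A promoter region of Cdkn2a, the locus of p19Arf and p16Ink4a (chr4:89282029-89282580), rose from 19.2, 13.0 and 16.1 in control to 27.5, 22.7 and 25.1 with MMF (log2 difference 0.65, SE 0.19, limma adjusted p = 0.0370). That call held without control 1 (limma adjusted p = 0.0290) and was lost without any other single library (limma adjusted p from 0.0626 to 0.118), and it was not made on ranks (0.186) or with median centring (0.263). A taller Cdkn2a promoter region (chr4:89294398-89295750) had heights of 56.3, 60.7 and 56.4 in control and 61.6, 72.2 and 68.0 with MMF. This taller region was not called (log2 difference 0.22, SE 0.16, limma adjusted p = 0.386), and its difference was −0.14 with median centring.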

How the data were processed

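The authors trimmed the ATAC-seq reads with Trim Galore, mapped them to mm10 with Bowtie2 and called peaks with MACS2 on each of the 6 samples on its own, per the labels and the methods (versions and options are not given in the sources used here). In the deposited lists the fold enrichment is a ratio of summit reads to the local background, p and q are given by the authors as −log10 values, and the deposited score is a whole-number form of the −log10 p that was not used. Position and summit columns were used as deposited.

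Peaks on chromosomes 1 to 19, X and Y were merged over the 6 lists (overlap of at least 1 bp). Summit reads and background were solved from the fold enrichment, as (reads + 1) / (background + 1), and the Poisson p, with whole reads within 0.02% for at least 99.99% of peaks. The median summit held between 14 and 19 reads. Heights describe called peaks only, and weak peaks missing from a list have none. For the regions found in every list, limma 3.58.1 (R 4.3.3) was fitted to log2 heights and to normal scores of percentile ranks by fold enrichment, without a block, with Benjamini-Hochberg adjustment over all 41182 regions. On simulated data the height fit called 0 of 200 regions shifted by 1 log2 unit and 171 shifted by 2, and the rank fit called 0, 144 and 191 of 200 at shifts of 1, 2 and 3 score units. At these shifts the height fit called 1 and 7 unshifted regions, and the rank fit 0, 7 and 6. Only these 200 of the 41182 regions were shifted, so the adjusted threshold was stricter than in the data, where far more regions were called. The counts therefore do not give the power of the fits on the data. A promoter reached 1000 bp to each side of an annotated start (GENCODE M21 basic). Single values were compared by two-sided exact permutation tests. Sequences were read with pysam 0.24.0.

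The 10 genes, the lists of pathway and marker genes and the tests were chosen with earlier results of these data known. Member regions were described one by one or by their range, and pathway genes were named if a promoter region passed a test, or else as the 2 highest and 2 lowest targets. Nothing in the labels says whether samples of a group came from separate mice or cultures, so p-values measure only the spread between these samples. Alternatives covered the q threshold, list length, overlap, window width, normalization, the ranking measure, the motif definition, the replicate block and each sample left out.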

Additional observations from a re-analysis of the deposited data

How the results depend on the processing

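Height calls depended most on the scale and on single libraries. Against 4 member regions called higher and 1 lower, log2 fold enrichment gave 1 and 0, quantile normalization gave 1 higher, median centring gave 0 higher and 7 lower, and a trended prior gave 7 higher. Without each replicate in turn 2 to 5 were higher and 0 to 0 lower. Rank calls, 0 in both directions, became 1 higher with ranks by −log10 p, with a −log10 q of at least 2 or with a trended prior, and 2 lower with lists of equal length. The 7 gained and 0 lost regions became 3 gained with equal lists and 1 lost with at least 2 lists of a group, and 7 to 9 and 0 to 1 without each replicate.

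With equal lists 0 of 10 promoters had a higher mean rank, not 6, and the rank differences of Bax (−6.71), Ccng1 (−0.0117), Phlda3 (−3.91), Trp53inp1 (−2.48), Sesn2 (−12.2) and Trp53 (−8.44) turned negative. Leaving out replicates, they ran from −2.07 to 3.69 for Bax, from −0.00748 to 0.710 for Ccng1, from −1.43 to 19.7 for Phlda3, from −1.66 to 1.69 for Sesn2 and from −0.439 to 3.54 for Trp53. Promoter log2 height differences turned to 0.0525 for Sesn2 and 0.0825 for Trp53 on fold enrichment, and to −0.28 for Bax, −0.16 for Ccng1 and −0.18 for Trp53inp1 with median centring, under which 1 promoter was higher, not 4. Leaving out replicates, they ran from −0.0391 to 0.130 for Bax, from −0.29 to 0.14 for Zmat3 and from −0.0965 to 0.00730 for Trp53. The causes were not tested.

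Deviations of same-numbered samples correlated weakly (from −0.00254 to 0.00787). On ranks each sample correlated best with its own number, a hint from the data and not the design, and on heights this did not hold, so the numbers were not taken to pair the samples. With a replicate block the height fit called 6 member regions higher and 0 lower, and the rank fit 0 and 0. Under the alternatives, 77 values of the main counts and comparisons and 179 of single promoters kept their direction and call or stayed near the value reported, while 24 and 21 moved or reversed, as given above.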
